A study of Sus scrofa with 15 samples.

Results

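The genes described here run and restrain the synthesis of polyamines: ODC1, AMD1, SAT1 and the antizyme genes OAZ1, OAZ2 and OAZ3. Their probes were found by the gene symbol or the description that the array files give, which yielded 19 probes for 6 genes among 43603 non-control probes, on an array where 5520 genes could be named by symbol. Of these, 17 matched by symbol, with ODC1 listed under its synonym ODC, and 2 matched by description. AMD1 was matched through the name of its protein, and the last probe was described only as similar to a bovine ornithine decarboxylase antizyme.

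Total RNA came from Longissimus muscle, the long back muscle, of 15 pigs weighing 20 kg. Their lines were bred for contrasting residual feed intake, which is feed eaten above the amount predicted for maintenance and growth. The low_RFI line (RFIneg, low intake) had 7 pigs and the high_RFI line (RFIpl, high intake) had 8, all fed ad libitum, with 1 pig per 1-colour Agilent array. Breed, sex and age are not in the labels used here, and neither is which pigs share a litter. The p-values treat the 15 pigs as independent, which could not be checked. If pigs of a line share litters, those p-values are too small.

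Polyamines are small, positively charged molecules that bind RNA and DNA and are needed for protein synthesis and cell growth. ODC1 makes putrescine from ornithine, and AMD1 makes the aminopropyl donor that turns putrescine into spermidine and spermine. Antizymes are translated through a ribosomal frameshift when polyamines are plentiful. They bind ODC1 and limit polyamine uptake, and some of them send ODC1 to the proteasome. SAT1 acetylates spermidine and spermine, which marks them for oxidation or export. The arrays measured RNA only, so frameshifting, enzyme activity and polyamine content are outside these data.

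The findings turn on 2 probes of OAZ3 that gave different pictures of the same gene, so both 60-base sequences are shown, 5′ to 3′. They share no run of 14 or more bases, and both have 45.0% G and C.
OAZ3 A_72_P437459: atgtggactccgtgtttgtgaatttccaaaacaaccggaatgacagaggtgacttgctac
OAZ3 A_72_P619999: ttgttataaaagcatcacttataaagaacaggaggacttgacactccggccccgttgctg

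The probe known only by its antizyme description is shown beside the OAZ1 probes that it mirrors. Capitals mark the longest run in which it is the reverse complement of each OAZ1 probe, 39 bases for A_72_P059181 and 32 bases for A_72_P561364; its own capitals mark the 39 bases.
OAZ1 A_72_P059181: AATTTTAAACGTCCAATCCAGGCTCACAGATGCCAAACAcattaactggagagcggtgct
OAZ1 A_72_P561364: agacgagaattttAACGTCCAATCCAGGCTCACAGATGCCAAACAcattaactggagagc
antizyme A_72_P192031: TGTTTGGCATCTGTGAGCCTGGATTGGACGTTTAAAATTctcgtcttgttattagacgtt
These 2 OAZ1 probes also overlap each other by 47 bases, so they are not independent measures of OAZ1, whereas A_72_P192031 is oriented to read the opposite strand. OAZ1 probes A_72_P628552 and A_72_P602908, not shown, share a run of 30 bases and are not independent either.

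Processed signals are scanner intensities after the scanner software's background subtraction. A level is log2 of that signal, minus the 75th percentile of the non-control probes of its array, so 0 is that percentile, and levels of different probes are not set against each other. A difference is the mean level in low_RFI minus that in high_RFI, with the standard error (SE) of a limma fit over all 31984 tested probes. Each difference is also given as the number of the 56 pairs of pigs, 1 from each line, in which the low_RFI pig was higher. Since these genes were chosen with their line differences known, those differences are descriptions and carry no p-value.

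All 19 probes passed the filter for testing, which asks for a signal well above background, by the software's flag, on at least 7 of the 15 arrays. Of them, 17 were well above background on all 15 arrays, A_72_P375978 of OAZ2 on 14 and A_72_P437459 of OAZ3 on 10. In limma with Benjamini-Hochberg adjustment, 0 of the 19 were called at an adjusted p under 0.05, as were 0.0% of all tested probes (smallest adjusted p 0.107; 2124 probes, or 6.64%, at an unadjusted p under 0.05). The values of the lines overlapped for each of the 19 probes; they failed to overlap for 0.0782% of tested probes. The differences were positive for 9 probes and negative for 10, with a median of -0.092, against 0.012 over all tested probes. In bulk muscle, fewer cells of a type and less RNA per cell cannot be told apart.

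**Figure D1:**
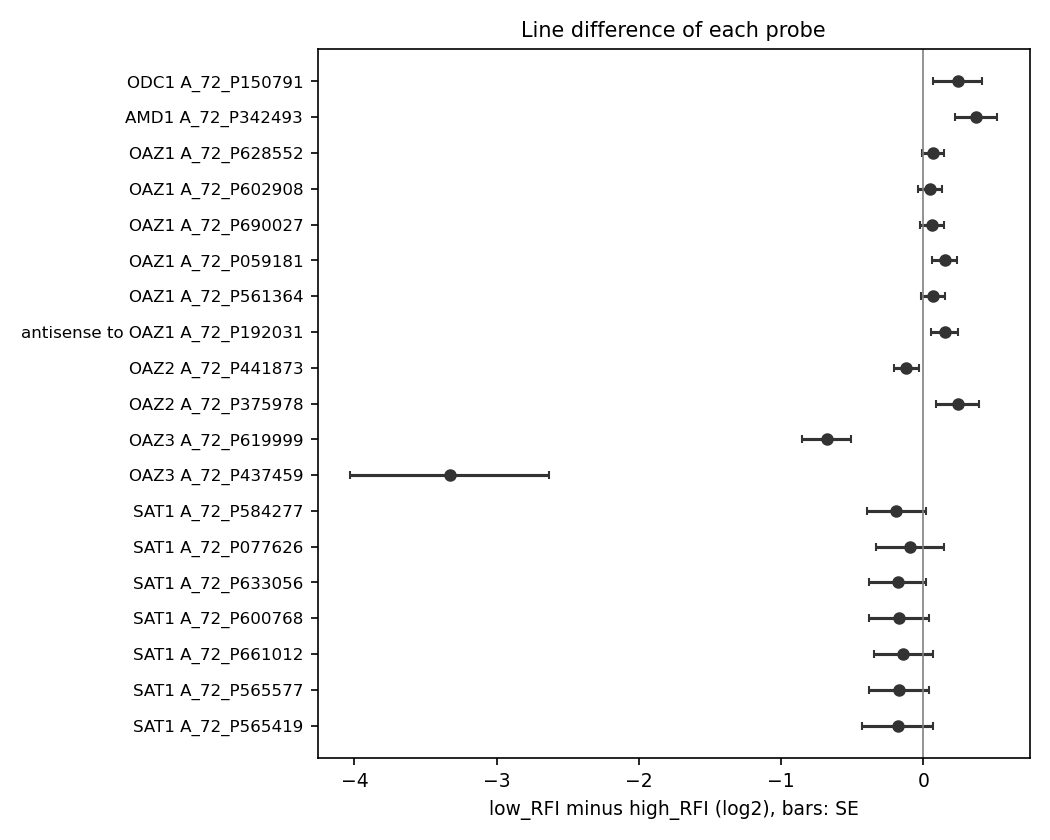
Difference in level between lines, low_RFI minus high_RFI on the log2 scale, for each of the 19 probes (points, with SE as bars; n = 7 low_RFI and 8 high_RFI pigs). Both OAZ3 probes lie below 0, at -0.68 and -3.33, and the other 17 lie between -0.19 and 0.37.

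ODC1, the enzyme that opens the pathway, had a lowest, median and highest processed signal of 279, 375 and 719 in low_RFI pigs, and of 232, 348 and 433 in high_RFI pigs on its only probe, A_72_P150791. The levels overlapped widely, and low_RFI replicate 7 stood above every other pig. The mean level was 0.092 ± 0.41 in low_RFI and -0.14 ± 0.27 in high_RFI (SD, n = 7 and 8), a difference of 0.24 (SE 0.17) with low_RFI higher in 36 of 56 pairs. Without low_RFI replicate 7 the difference was 0.10. Within the 4 slides, each of which held both lines, ODC1 differed by 0.073, 0.19, 0.090 and 0.45. Each slide held few pigs, and on slide 2 low_RFI replicate 1 was the only pig of its line.

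AMD1, which decarboxylates S-adenosylmethionine, had a higher mean in low_RFI on its only probe, A_72_P342493. Its processed signal was 135, 161 and 261 (lowest, median, highest) in low_RFI pigs and 106, 137 and 163 in high_RFI pigs. On the level scale, low_RFI replicates 2, 3, 4 and 7 exceeded all 8 high_RFI pigs, while the other 3 low_RFI pigs lay within the high_RFI range. The mean level was -1.09 ± 0.37 in low_RFI and -1.46 ± 0.24 in high_RFI (SD, n = 7 and 8). The difference of 0.37 (SE 0.15) is a 1.29-fold higher mean in low_RFI, with low_RFI higher in 47 of 56 pairs. AMD1 stayed higher in low_RFI within each slide, by 0.054 to 0.63 on few pigs each, and with any single pig left out, by 0.26 to 0.43. When the background was corrected by normexp in place of the software's subtraction, the difference was 0.19.

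**Figure D2:**
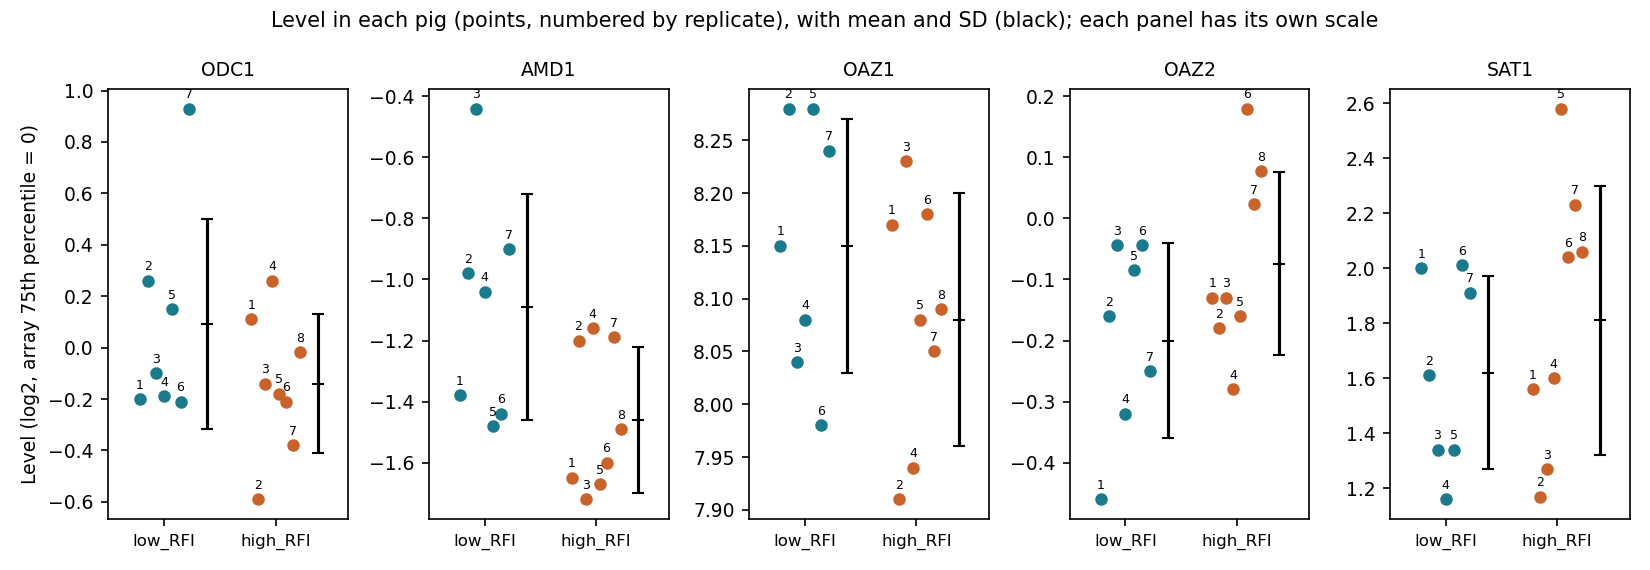
Level of ODC1, AMD1 and SAT1 and of the antizyme genes OAZ1 and OAZ2 in each pig (points, numbered by replicate; log2, 0 is the array's 75th percentile), by the probe of highest mean level, with mean and SD in black. The lines overlap in every panel; low_RFI replicate 7 is highest for ODC1, low_RFI replicate 3 for AMD1 and high_RFI replicate 5 for SAT1.

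OAZ1, a widely expressed antizyme, was measured by 5 probes, all well above background on every array and all slightly higher in low_RFI. On A_72_P628552, the brightest, the processed signal was 86100, 112000 and 122000 (lowest, median, highest) in low_RFI pigs and 83900, 99200 and 121000 in high_RFI pigs. Both lines covered nearly the same range, with mean levels of 8.15 ± 0.12 in low_RFI and 8.08 ± 0.12 in high_RFI (SD, n = 7 and 8). The difference on this probe was 0.066 (SE 0.077), with low_RFI higher in 36 of 56 pairs. Over the 5 probes the differences ran from 0.048 to 0.15 with a median of 0.066; the SE ranged from 0.077 to 0.088, so A_72_P059181 alone exceeded its own SE. Its difference was 0.15 (SE 0.088), with low_RFI higher in 43 of 56 pairs, and A_72_P561364, which shares 47 bases with it, differed by 0.067 (SE 0.087).

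The probe opposite to OAZ1, A_72_P192031, was well above background on all 15 arrays, with signals of 192, 231 and 253 (lowest, median, highest) in low_RFI pigs and 141, 196 and 269 in high_RFI pigs. The low_RFI pigs lay within the wider high_RFI range. Its mean level was -0.76 ± 0.09 in low_RFI and -0.91 ± 0.21 in high_RFI (SD, n = 7 and 8), a difference of 0.15 (SE 0.095) in 39 of 56 pairs. Whether this signal is an antisense transcript was not tested.

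OAZ2, a second antizyme of broad expression, gave differences of opposite sign on its 2 probes. A_72_P441873 had signals of 255, 344 and 421 (lowest, median, highest) in low_RFI pigs and 299, 352 and 468 in high_RFI pigs. Its mean level was -0.20 ± 0.16 in low_RFI and -0.074 ± 0.15 in high_RFI (SD, n = 7 and 8), a difference of -0.12 (SE 0.090) with low_RFI higher in 18 of 56 pairs. A_72_P375978 was dim, at 17.3, 24.9 and 36.8 in low_RFI pigs and 14.2, 22.3 and 30.1 in high_RFI pigs, and was not well above background in low_RFI replicate 2. On it the difference was 0.24 (SE 0.15), with low_RFI higher in 39 of 56 pairs, but -0.089 when the background was corrected by normexp in place of the software's subtraction. The OAZ2 probes did not follow each other across pigs (Pearson r = -0.17, permutation adjusted p = 0.631; Spearman rho = -0.0036, permutation adjusted p = 0.995; n = 15).

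OAZ3, known from mouse and human as the antizyme of male germ cells, showed the widest gap between lines of the 6 genes, and the gap depended on the probe. A_72_P619999 was well above background on all 15 arrays. Its processed signals were 81.9, 45.0, 51.3, 51.9, 64.0, 50.1 and 97.5 in low_RFI replicates 1 to 7. In high_RFI replicates 1 to 8 they were 97.0, 92.5, 102, 69.1, 116, 94.9, 104 and 104. The high_RFI pigs were tightly grouped apart from replicate 4, and low_RFI replicates 1 and 7 reached into their range.

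On this probe the mean level was -2.63 ± 0.43 in low_RFI and -1.95 ± 0.23 in high_RFI (SD, n = 7 and 8). The difference of -0.68 (SE 0.17) is a 1.6-fold higher mean in high_RFI, with the low_RFI pig higher in only 4 of 56 pairs. It was negative within each of the 4 slides, at -1.04, -0.34, -0.63 and -0.53, on few pigs each. Under normexp, another background correction, it was -0.43. It was also the same in pigs numbered 1 to 8 and in those numbered 55 to 62 in the array names, at -0.67 in each.

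A_72_P437459 split the low_RFI pigs into separate groups. In low_RFI replicates 1 to 7 its processed signals were 5.14, 4.66, 7.87, 5.46, 75.6, 7.81 and 178. In high_RFI replicates 1 to 8 they were 162, 127, 127, 80.2, 140, 142, 202 and 170. It was well above background in 2 of 7 low_RFI pigs, replicates 5 and 7, and in 8 of 8 high_RFI pigs. The other 5 low_RFI pigs had signals below the lowest signal that any probe flagged well above background had on their arrays, which ran from 7.00 to 21.6 over those 5 arrays.

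**Figure D3:**
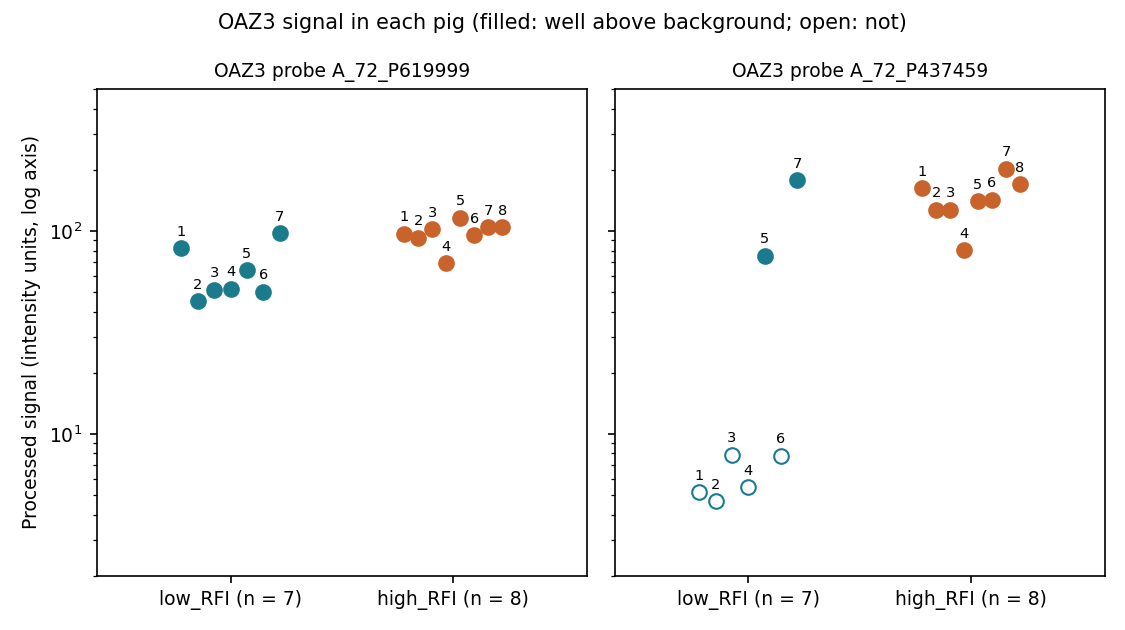
Processed signal (intensity units, log axis) of each OAZ3 probe in each pig, numbered by replicate; filled points are well above background and open points are not. On A_72_P619999 the 7 low_RFI pigs lie between 45.0 and 97.5 and the 8 high_RFI pigs between 69.1 and 116. On A_72_P437459, 5 low_RFI pigs lie between 4.66 and 7.87, and the other 2 reach the high_RFI range or its lower edge.

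The mean level of A_72_P437459 was -4.74 ± 2.13 in low_RFI and -1.42 ± 0.43 in high_RFI (SD, n = 7 and 8). Its difference of -3.33 (SE 0.70) rests on 5 low_RFI values that were not well above background, and it shrank to -1.22 under normexp. The low_RFI pig was higher in 6 of 56 pairs. This probe passed the filter only through the 8 high_RFI pigs and 2 low_RFI pigs, so a probe admitted this way had to differ. Without low_RFI replicate 7 its difference was -3.94, and it was then 1 of 2 probes called over the whole array; that call comes from the contrast through which OAZ3 was chosen.

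Differences within slides or runs of pig numbers are not given for A_72_P437459, since most would be set against signals at background. In pigs numbered 1 to 8 it was well above background in 0 of 4 low_RFI and 4 of 4 high_RFI pigs, and in pigs numbered 55 to 62 in 2 of 3 low_RFI and 4 of 4 high_RFI pigs. What the runs of numbers stand for is not stated in the labels.

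The probes agreed on which low_RFI pig was highest, replicate 7, but not on the next, since replicate 1 was second on A_72_P619999 and not well above background on A_72_P437459. The pigs formed separate clusters on A_72_P437459, so no correlation over all 15 is given. Both probes were well above background in 10 pigs, 2 of low_RFI and 8 of high_RFI. Among these the levels rose together (Pearson r = 0.89, Spearman rho = 0.78, n = 10). The flag of A_72_P437459 itself picked these pigs, and line means were not removed, so this is a description with no p-value. Leaving out the 2 pigs farthest from the median brought r to 0.61 (n = 8), so the relation rests on those pigs. The remaining 5 pigs were too few for a correlation.

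**Figure D4:**
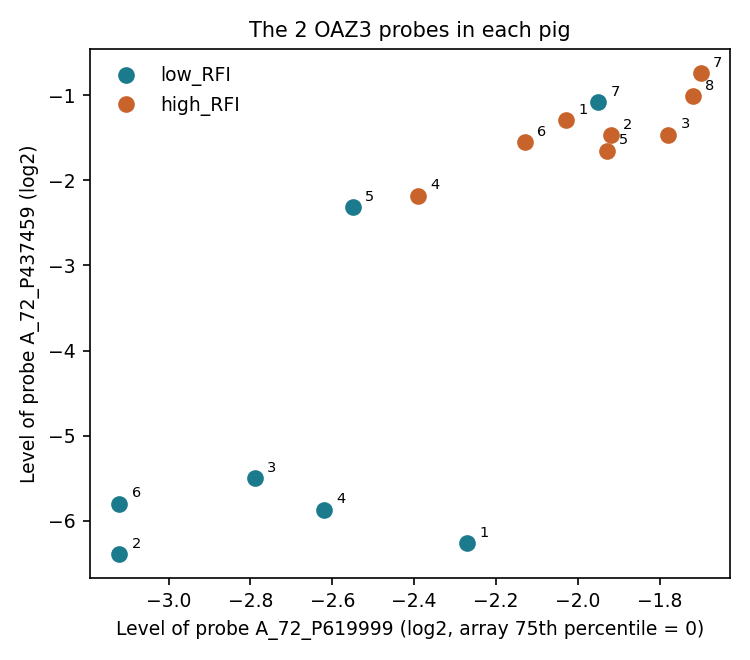
Level of OAZ3 probe A_72_P437459 (vertical axis) against that of A_72_P619999 (horizontal axis) in each pig, both log2 with the array's 75th percentile at 0; points are numbered by replicate and coloured by line. The 8 high_RFI pigs and low_RFI replicates 5 and 7 form the upper group, and 5 low_RFI pigs lie below -5 on the vertical axis while spreading from -3.12 to -2.27 on the horizontal axis.

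OAZ3 lies on chromosome 4 in the RefSeq gene table of Sscrofa11.1; the array files name no genome build, so the position of neither probe in the gene is given. Among the 8 protein-coding genes within 4 places of it, a set chosen after the data were seen, 2 were measured under their names. RIIAD1 had a level of -1.80 ± 0.12 in low_RFI and -1.81 ± 0.12 in high_RFI, a difference of 0.0093 (limma adjusted p = 0.997). SNX27, a sorting nexin of endosomes, had a level of -0.33 ± 0.11 in low_RFI and -0.39 ± 0.11 in high_RFI, a difference of 0.059 (limma adjusted p = 0.969). Neither neighbour was called, and nor was any other tested probe of the array.

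Markers of the cells a muscle sample could hold were set beside these values. A summed level is log2 of the added unlogged levels of a list, so it mostly reflects the marker of strongest signal. Of 10 markers of muscle fibres 9 were on the array, all well above background in every pig, with a summed level of 12.65 to 12.97 in low_RFI and 12.63 to 12.96 in high_RFI. Of 7 markers of male germ cells, the cells known for OAZ3, 5 were on the array. PRM1, PRM2 and TNP2 were well above background on all 15 arrays, DDX4 on 1 and ODF1 on 0. Even those flagged on all arrays were dim, with levels of -3.81 to -2.76 (PRM1), -3.85 to -2.16 (PRM2) and -4.05 to -3.32 (TNP2). The summed level of the 5 ran from -1.90 to -1.19 in low_RFI and from -1.91 to -1.18 in high_RFI, nearly the same range in both lines. Singly these markers differed in both directions, by 0.17 (PRM1), -0.18 (PRM2), 0.072 (TNP2), -0.53 (DDX4) and 0.023 (ODF1). The DDX4 and ODF1 values rest mostly on signals not well above background. Adipocyte markers summed to 4.06 to 5.30 in low_RFI and 4.4 to 5.12 in high_RFI, with PLIN1 well above background on 2 arrays. Singly they differed between lines by 0.086 (FABP4), -0.31 (ADIPOQ), -0.12 (PLIN1) and -0.043 (LEP). Endothelial markers summed to 4.28 to 4.60 in low_RFI and 4.16 to 4.75 in high_RFI. Singly they differed by 0.20 (PECAM1), 0.27 (CDH5) and -0.24 (VWF), so similar sums do not mean that each marker was alike. The part of cell makeup in the line differences was not tested.

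SAT1, which acetylates spermidine and spermine, was measured by 7 probes on all 15 arrays, all with slightly lower means in low_RFI. On the brightest, A_72_P584277, the processed signal was 712, 1200 and 1740 (lowest, median, highest) in low_RFI pigs and 787, 1300 and 2630 in high_RFI pigs. High_RFI replicate 5 was the highest pig, and the rest of the lines overlapped. The mean level was 1.62 ± 0.35 in low_RFI and 1.81 ± 0.49 in high_RFI (SD, n = 7 and 8), a difference of -0.19 (SE 0.21) with low_RFI higher in 20 of 56 pairs.

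Over the 7 SAT1 probes the difference ran from -0.19 to -0.092 with a median of -0.17, and none exceeded its SE. The remaining 6 probes differed by -0.092 (A_72_P077626), -0.18 (A_72_P633056), -0.17 (A_72_P600768), -0.14 (A_72_P661012), -0.17 (A_72_P565577) and -0.18 (A_72_P565419). Without high_RFI replicate 5 the difference on A_72_P584277 was -0.081, and that on A_72_P077626 turned to 0.057. The sign also changed with the run of numbers: A_72_P584277 differed by 0.13 in pigs 1 to 8 and by -0.48 in pigs 55 to 62, and its interaction of line and run did not pass (limma, adjusted p = 0.891). No probe of the 31984 passed that interaction (smallest adjusted p 0.872), and 1795 had an unadjusted p under 0.05. Pigs 55 to 62 had a SAT1 level 0.53 higher than pigs 1 to 8, which is wider than the gap between lines.

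Agreement among probes of 1 gene differed between SAT1, OAZ1 and OAZ2. In a family of 49 correlations across the 15 pigs, all 21 pairs of SAT1 probes passed (Pearson r from 0.92 to 0.99, permutation, largest adjusted p = 2.23e-05; Spearman rho from 0.88 to 0.99), and r stayed at 0.93 or above without the 2 pigs farthest from the median. The lowest r between SAT1 probes was 0.88 in pigs 1 to 8 and 0.85 in pigs 55 to 62. Several SAT1 probes overlap in sequence, by up to 45 bases, and some OAZ1 probes by up to 47 bases. Pairs of probes within either gene are therefore partly repeat measurements. Having such pairs in the family of 49 also lowers the adjusted p of its other pairs, including those between genes. Of 10 pairs of OAZ1 probes 8 passed (r from 0.48 to 0.91 over the 10), and the pairs that did not pass paired A_72_P059181 with A_72_P602908 (permutation adjusted p = 0.106) or A_72_P690027 (permutation adjusted p = 0.0615). The pair with A_72_P690027 passed by Spearman rho (0.57, permutation adjusted p = 0.0486), and under normexp both pairs passed, with r = 0.77 (permutation adjusted p = 0.0016) and r = 0.72 (permutation adjusted p = 0.00509).

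In the same family of 49, the probe opposite to OAZ1 correlated with A_72_P561364 (Pearson r = 0.64, permutation p = 0.00912, adjusted p = 0.0149). By rank, Spearman rho was 0.61 (permutation p = 0.0184, adjusted p = 0.0301). Both adjusted values are eased by the SAT1 and OAZ1 pairs in the family. A_72_P192031 was not seen to follow A_72_P059181 (r = 0.24, permutation adjusted p = 0.494, and rho = 0.14, permutation adjusted p = 0.687), with which it shares the longer unbroken run. Past a single unmatched base, the lower-case start of A_72_P561364 also mirrors A_72_P192031, so the unbroken run understates the match of that pair. Without the 2 pigs farthest from the median the relation with A_72_P561364 had r = 0.51 (n = 13, permutation adjusted p = 0.121). It was 0.70 in pigs 1 to 8, 0.61 in pigs 55 to 62 and 0.61 with line means removed (permutation adjusted p = 0.0258). Under normexp r was 0.30 (permutation adjusted p = 0.387).

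Between genes, by the brightest probe of each, 0 of 15 pairs passed, with r from -0.43 to 0.52 and rho from -0.45 to 0.55. The highest was ODC1 with OAZ1 (r = 0.52, permutation p = 0.0451, adjusted p = 0.0691; rho = 0.55, permutation p = 0.0345, adjusted p = 0.0528), which fell to 0.27 without 2 pigs. ODC1 and OAZ1 correlated at 0.42 in pigs 1 to 8 and at 0.64 in pigs 55 to 62. The lowest was AMD1 with OAZ3 (r = -0.43, permutation p = 0.112, adjusted p = 0.161), which was -0.056 once line means were removed.

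Genes whose level was most like that of each gene across the 15 pigs, after line means were removed, were ranked among 4501 named genes by Pearson r; such top values are high by selection and are a description. For OAZ3 (A_72_P619999) they were MYF5, a transcription factor of muscle precursors, at 0.86, MLEC at 0.82 and CEP41 at 0.81. For OAZ1 they were CDK5RAP2, a centrosome protein, at 0.85, DTWD1 at 0.82 and IREB2, an iron regulatory protein, at 0.80. For OAZ2 they were LNPEP, an aminopeptidase, at 0.86, FRRS1 at 0.80 and RUSC2 at 0.80. The nearest to ODC1 were TMEM18 at 0.83, RTCB, a tRNA ligase, at 0.82 and RAN, the GTPase of nuclear transport, at 0.81. AMD1 was followed by SLC2A11, SRSF9 and SLC39A14, each at 0.83. SAT1 was followed by RGS2, a regulator of G protein signalling, at 0.92, TOR4A at 0.88 and TMSB4X, an actin-binding peptide, at 0.88.

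The rest of the polyamine pathway was described through 42 further genes, of which 21 were on the array by name and 19 were tested, each by its brightest probe. Of the 19, 10 were higher and 9 lower in low_RFI, with a median difference of 0.059 against 0.014 over 4694 genes; the median ran from -0.0057 to 0.11 with single pigs left out. In limma 0 of 19 passed an adjusted p under 0.05 (smallest adjusted p 0.849), as did 0.0% of all genes. At an unadjusted p under 0.05 the count was also 0 of 19, against 6.86% of all genes (3.98% higher and 2.88% lower in low_RFI).

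SMS, spermine synthase, had a level of 1.35 ± 0.14 in low_RFI and 1.45 ± 0.10 in high_RFI (SD, n = 7 and 8), a difference of -0.10 (limma adjusted p = 0.903). Its 3 probes disagreed, from -0.22 to 0.25. AZIN1, the inhibitor that frees ODC1 from antizymes, had a level of 2.65 ± 0.36 in low_RFI and 2.50 ± 0.17 in high_RFI, a difference of 0.15 (limma adjusted p = 0.946), with its 6 probes between -0.089 and 0.15. Without low_RFI replicate 7 the AZIN1 difference was 0.042. Neither gene was called, and their lines overlapped.

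Genes that supply ornithine and arginine numbered 5 tested of 8, with 3 higher and 2 lower in low_RFI. ARG1, the liver-type arginase, had a level of -4.09 ± 1.11 in low_RFI and -3.47 ± 0.55 in high_RFI, a difference of -0.63 (limma adjusted p = 0.859) on a dim probe, well above background on 14 arrays. It was -0.39 without low_RFI replicate 2, -0.93 without low_RFI replicate 5 and -0.27 under normexp. Within slides it ran from -1.59 on slide 4 to 0.86 on slide 3, on few pigs each. GATM, which uses arginine to begin creatine synthesis, had a level of -2.38 ± 0.31 in low_RFI and -2.23 ± 0.25 in high_RFI, a difference of -0.16 (limma adjusted p = 0.940), and of -0.25 without low_RFI replicate 1. In the methionine cycle, 2 of 9 genes were tested, and AHCY, which clears S-adenosylhomocysteine, differed by 0.14 (limma adjusted p = 0.925), and by 0.085 without high_RFI replicate 2.

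Transporters numbered 6 tested of 10, with 3 higher and 3 lower in low_RFI. SLC7A2, a carrier of arginine and ornithine, had a level of 2.72 ± 0.27 in low_RFI and 2.44 ± 0.43 in high_RFI, a difference of 0.29 (limma adjusted p = 0.849). SLC18B1, a vesicular polyamine transporter, differed by 0.22 (limma adjusted p = 0.897), and by -0.073 under normexp. SLC22A2, an organic cation transporter, differed by 0.40 (limma adjusted p = 0.904), by 0.065 without low_RFI replicate 2 and by 0.030 under normexp. MYC, a known activator of ODC1 transcription, had a level of 0.22 ± 0.52 in low_RFI and -0.11 ± 0.87 in high_RFI, a difference of 0.34 (limma adjusted p = 0.956), between 0.20 and 0.54 with single pigs left out. None of these genes was called.

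**Figure D5:**
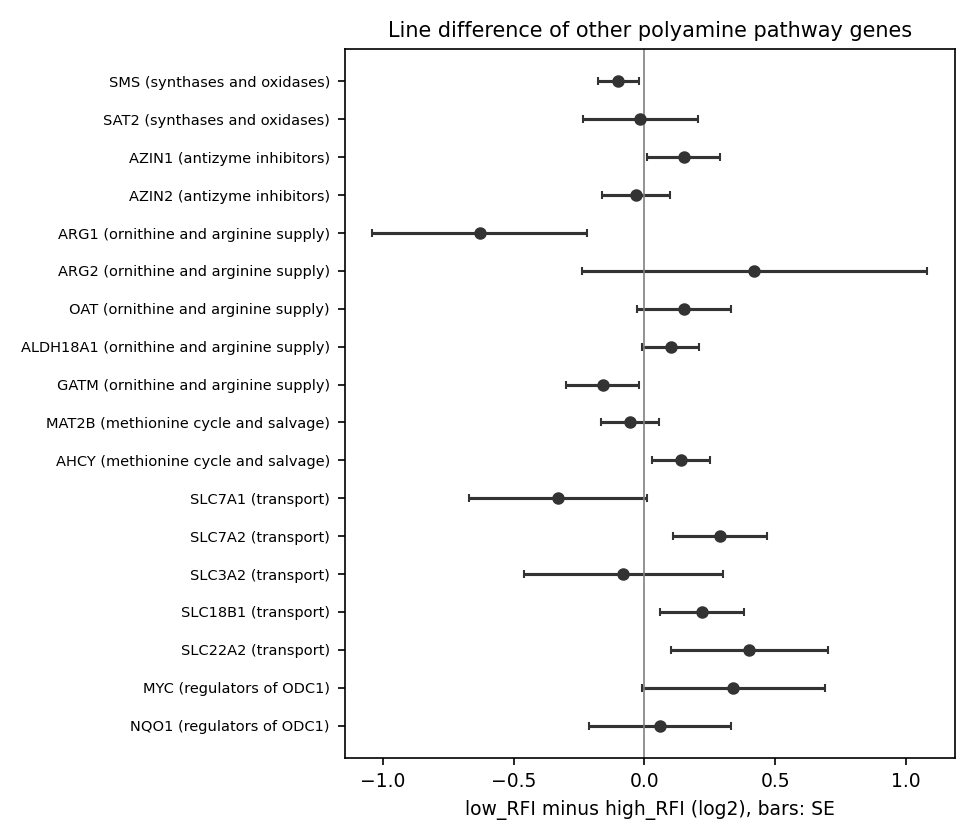
Difference in level between lines, low_RFI minus high_RFI on the log2 scale, for tested genes of the wider polyamine pathway (points, with SE as bars; n = 7 low_RFI and 8 high_RFI pigs). The points run from -0.63 for ARG1 to 0.42 for ARG2, and none passed at an adjusted p under 0.05.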

How the data were processed

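Longissimus RNA of 15 pigs (7 low_RFI, 8 high_RFI) was labelled with Cy3, 1 pig per array, per the labels. The authors read the arrays with Feature Extraction 10.7.3.1 under protocol GE1_107_Sep09, and its processed signal is an intensity, per the file headers, after its background subtraction and with no normalization between arrays. Flags for saturation, non-uniform spots and signal well above background come from other columns, per the file headers. The deposited values are on the log2 scale, for which the submitters' processing notes name R 2.10.0; they equal log2 of the processed signal minus the array's median over 29364 probes (largest difference 4.93e-08) and served as an alternative.

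Control and non-uniform spots were left out and spots of 1 probe averaged. The level is log2 of the processed signal after each array's 75th percentile was subtracted. Probes well above background on at least 7 arrays, with at least 4 values per line, were tested: 31984 of 43603. Lines were compared two-sided with limma 3.58.1 in R 4.3.3 (statmod 1.5.0, and version 1.17.8 of data.table), called at an adjusted p under 0.05 (Benjamini-Hochberg over all tested probes). Correlations used 100000 permutations in numpy 2.4.6, with Spearman rho from scipy 1.17.1. The fit was tested on simulated data. Normexp used an offset of 50.

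Each array had 26908 to 34644 probes well above background, or 61.7% to 79.5%; the 75th percentile of signal was 319 to 441, and 0 spots were saturated. Precision is limited by how many pigs there were: the median SE was 0.142 and the median absolute difference 0.103 (log2). Genes were named through the files' accessions, symbols and RefSeq: 12285 probes had 1 name, 38 several and 31280 none. All gene sequences shown are the arrays' own probes.

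The genes and lists, including the markers, were chosen with earlier results of these data known. The text names each of the 19 probes, the 8 pathway genes of smallest p and that of smallest p in each group, and the 3 genes most like each gene; 1 pathway gene that the rule names is counted but not reported here. The 4 hypusination genes, leukocyte and erythrocyte markers are largely unnamed on the array and were not analysed here, beyond CD3E among 3 leukocyte markers (level -4.43 to -1.26 in low_RFI, -3.97 to -2.08 in high_RFI). Pigs of the same replicate number were not treated as pairs in the main fit. Their deviations correlated at -0.0122 to 0.269, which cannot show whether such pigs were paired, for instance by litter.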

Additional observations from a re-analysis of the deposited data

Results flagged for a closer look

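In 58 groups of pigs checked for a value standing far from its group, 2 were found; chance gives about 1 in 20. ODC1 in low_RFI replicate 7 had a level of 0.93, with the next low_RFI pig at 0.26. SLC22A2, an organic cation transporter, had a level of -1.15 in low_RFI replicate 2, with the next low_RFI pig at -3.13, and without that pig its line difference was 0.065. Their part in the line differences beyond these values was not tested.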

How the results depend on the processing

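The line difference of OAZ3 probe A_72_P437459 moved to -1.22 under normexp, and SLC18B1 reversed to -0.073; the cause was not tested. Probes called over the whole array, 0 at the main setting, numbered 1 with no filter on dim probes and 0 to 2 when single pigs were left out, with 2 without low_RFI replicate 7. With replicate number as a replicate block 0 probes were called, the OAZ3 probes differed by -0.65 and -3.27, and 1 of the 19 pathway genes had an unadjusted p under 0.05, against 0 without it. That count of pathway genes was 0 to 1 when single pigs were left out, and 1 without low_RFI replicate 5. OAZ3 probe A_72_P619999 kept its sign in all settings tried, from -0.79 to -0.60 with single pigs left out and from -0.68 to -0.43 otherwise. ODC1 and AMD1 stayed positive, at 0.16 to 0.25 and 0.19 to 0.43 under other settings. OAZ1 probe A_72_P602908 was -0.0025 at its lowest, and SAT1 probe A_72_P077626 0.057 without high_RFI replicate 5. The deposited table gave no value for A_72_P437459. For OAZ3 A_72_P437459, 5 of 7 low_RFI signals not well above background limit what its difference can show.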
